A study of Mus musculus with 8 samples.

Results

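The genes described here encode subunits of respiratory complexes I, III and IV and of ATP synthase (complex V) in cells of the mouse colon. They were chosen by symbol: the mitochondrially encoded genes whose names begin mt-Nd, mt-Co, mt-Atp or mt-Cytb, and the nuclear genes whose names begin Nduf (followed by a, b, c, s or v and a digit), Uqcr, Cox4 to Cox8 or Atp5. A gene had to have at least 1 UMI (unique molecular identifier, a tag that counts each captured RNA molecule once) in at least 100 cells. Of 31053 genes in the matrix, 93 matched by name and 88 met the cell minimum: 13 mitochondrially encoded and 75 nuclear encoded. The 5 that did not were Cox7b2 (3 cells), Cox6a2 (38 cells), Cox8b (54 cells), Cox8c (1 cell) and a second identifier of Atp5o. By complex, the nuclear genes numbered 37 for complex I, 8 for complex III, 14 for complex IV and 16 for complex V, with Ndufa4 counted under complex I by its name. Succinate dehydrogenase, complex II, lies outside the name rule, as does Cyc1, the cytochrome c1 subunit of complex III. Both are taken up below among the neighbouring gene lists.

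The series measured single-cell 3′ RNA of the distal colonic mucosa, stripped of its muscle layers, in 4 KO-labelled and 4 WT-labelled mice of 8 weeks. The KO mice carry floxed Spry2 with VillinCre, a transgene that expresses Cre recombinase in the intestinal epithelium under the villin promoter; the WT mice are littermates with the same floxed Spry2 and no Cre. KO mice are numbered 2, 3, 6 and 7, and WT mice 1, 4, 5 and 8. The authors named the cells by class and, in part, by subtype.

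The matrix held 53080 cells with 17037906 to 37300028 UMIs and 3302 to 10101 cells per mouse; removing the 1316 cells with a doublet label left 51764. Barcodes that occurred in more than 1 mouse numbered 356 and belonged to 719 cells (1.35%). Spry2, the targeted gene, had 10.4, 13.3, 15.7 and 49.3 CPM (UMIs of the gene per 1e+06 UMIs) in the epithelium of KO mice, against 11.2, 17.6, 27.7 and 37.6 CPM in WT mice. These groups overlapped, so the Spry2 tags did not separate the genotypes on this scale. KO mouse 7 had the highest value of all. The denominator here includes mitochondrially encoded UMIs, whose epithelial share varied between mice. Whether 3′ tags cover the deleted exon was not tested, and the genotypes are used as labelled. By the mean over mice, each class was led by its own marker list, apart from B cells. That class includes plasma cells, and its summed plasma-cell markers (33566 CPM) exceeded its B-cell markers (3009 CPM). B cells also held 1106 CPM of erythroid markers, up to 3981 CPM by mouse. Epithelial markers summed to 323 CPM in B cells and 373 CPM in T cells. Myofibroblasts also held 7772 CPM of fibroblast and 2120 CPM of pericyte markers. The endothelium held 4262 CPM of plasma-cell markers, ranging between mice up to 18597 CPM. That maximum lay above the blood endothelium markers of every mouse, which reached 7917 CPM at most. Taken as a class, epithelial cells of mice 1 to 4 held a larger mitochondrially encoded share than those of mice 5 to 8. Per the labels all 8 libraries were processed on the same day, so this divide has no labelled batch behind it, and both sides contain KO and WT mice.

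Oxidative phosphorylation passes electrons from NADH through complexes I, III and IV to oxygen and uses the resulting proton gradient to drive ATP synthase. Its complexes are assembled from products of both genomes: a small core is made inside the mitochondrion, and the remaining subunits are imported from the cytosol. Colonic epithelial cells are known to burn butyrate from the gut flora in their mitochondria, and several subunits exist as paired isoforms used in different tissues.

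Sequences are shown for the genes on which the results below turn. The first 3 are promoter windows of 300 bases (250 before and 50 after the start site, RefSeq, GRCm38.p6) of Atp5k, to which the comparison of genotypes returns, and of the isoform pair Cox7a1 and Cox7a2. A set of 4 motifs known from promoters of respiratory genes were searched on both strands and are in capitals: NRF1 (its palindromic GC-rich consensus), ETS (CCGGAAG), YY1 (AAGATGGC) and ERR (AAGGTCA). The last is the mt-Atp8 gene itself (GRCm38), in which capitals mark the 43 bases that it shares with mt-Atp6.
Atp5k promoter, chr5:108434350-108434649, minus strand: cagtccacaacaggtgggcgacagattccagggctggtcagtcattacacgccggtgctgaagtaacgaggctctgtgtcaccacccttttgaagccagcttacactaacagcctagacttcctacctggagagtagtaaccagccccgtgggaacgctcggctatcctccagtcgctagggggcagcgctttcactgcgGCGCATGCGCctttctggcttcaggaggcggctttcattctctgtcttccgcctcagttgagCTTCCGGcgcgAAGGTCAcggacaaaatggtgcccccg
Cox7a1 promoter, chr7:30183921-30184220, plus strand: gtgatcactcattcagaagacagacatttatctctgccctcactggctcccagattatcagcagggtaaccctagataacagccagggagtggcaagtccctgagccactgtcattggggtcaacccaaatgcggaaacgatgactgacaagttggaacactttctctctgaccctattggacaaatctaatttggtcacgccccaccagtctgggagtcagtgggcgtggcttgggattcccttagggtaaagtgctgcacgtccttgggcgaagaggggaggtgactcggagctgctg
Cox7a2 promoter, chr9:79759804-79760103, minus strand: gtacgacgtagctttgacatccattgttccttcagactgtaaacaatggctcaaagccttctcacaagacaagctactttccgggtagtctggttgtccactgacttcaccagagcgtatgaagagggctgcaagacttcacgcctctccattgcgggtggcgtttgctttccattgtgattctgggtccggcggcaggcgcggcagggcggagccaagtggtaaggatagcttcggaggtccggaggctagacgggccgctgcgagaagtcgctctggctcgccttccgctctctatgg
mt-Atp8 gene, chrM:7766-7969, plus strand: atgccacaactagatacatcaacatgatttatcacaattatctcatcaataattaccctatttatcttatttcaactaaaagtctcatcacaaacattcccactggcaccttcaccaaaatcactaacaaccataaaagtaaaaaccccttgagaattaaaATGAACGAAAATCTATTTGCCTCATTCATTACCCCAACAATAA

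The Atp5k window held 3 of the 4 motifs: an NRF1 match that reads alike on both strands at bases -50 to -41 from the start site, an ETS match at bases 12 to 18 and an ERR match at bases 23 to 29. Neither Cox7a window held a match. Of the 75 nuclear genes, 63 matched a RefSeq promoter entry, with 68 windows among them. At least 1 of the 4 motifs lay in 52.9% of these windows, against 18.9% of 32851 windows of all genes. The NRF1 motif was in 23.5% of the members' windows and 4.60% of all windows, ETS in 20.6% and 8.86%, YY1 in 14.7% and 2.75%, and ERR in 10.3% and 4.72%. No matches of different motifs overlapped in the members' windows. The windows of all genes were not matched to the members for base content or expression, so these shares are a description. A match is a run of letters and was not tested as a binding site.

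The mitochondrial genes lie close on their circular genome, and 4 neighbouring pairs share bases in the annotation: mt-Atp8 and mt-Atp6 share 43 bases (M:7927-7969), mt-Nd4l and mt-Nd4 share 7, mt-Atp6 and mt-Co3 share 1, and mt-Nd5 shares 14 with mt-Nd6, which is read from the opposite strand. Counts of mt-Atp8 and mt-Nd4l are therefore uncertain, since a read within shared bases, or an RNA that carries both frames, does not point to a single gene. How such reads were counted was not examined.

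Across the whole data set the 13 mitochondrially encoded genes took 17.6% of all UMIs and the 75 nuclear genes 2.00%. The epithelium stood above every other class in both sets. Its mitochondrially encoded share was 54.7%, 43.4%, 21.1% and 18.6% of UMIs in KO mice 2, 3, 6 and 7, against 51.8%, 37.8%, 28.8% and 14.3% in WT mice 1, 4, 5 and 8. The genotypes overlapped throughout, and for the class the divide ran between mice 1 to 4 and mice 5 to 8. Within cells named enterocytes the share was 39.3%, 37.0%, 38.5% and 20.4% in WT mice 1, 4, 5 and 8. There WT mouse 5 lay above WT mouse 4. In cells named stem-progenitor it was 22.7%, 18.8%, 16.8% and 13.05%, in the order of the divide. The part of subtype make-up in the class share was not tested. In the other classes the share averaged between 3.52% ± 0.818 (SD, n = 8) in fibroblasts and 8.65% ± 2.11 (SD, n = 3) in myofibroblasts. The epithelial share exceeded that of fibroblasts by 4.60 to 15.7 times within a mouse, in 8 of 8 mice.

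To keep this varying share out of the denominator, nuclear genes are given below as CPM of non-mitochondrial UMIs, that is, of all UMIs outside the 13 genes. The summed nuclear set had 31598.5, 36657, 38148 and 38996 CPM in the epithelium of KO mice 2, 3, 6 and 7, against 32771, 36071, 39519 and 51371 CPM in WT mice 1, 4, 5 and 8. WT mouse 8 was highest, and the groups overlapped. The part of subtype make-up in these class values was not tested. Fibroblasts averaged 13786 ± 1632 CPM (SD, n = 8), B cells 12619 ± 871 CPM (n = 8), T cells 15731 ± 920.2 CPM (n = 8), macrophages 16007 ± 656 CPM (n = 7), lymphatics 16849 ± 1715 CPM (n = 7), blood endothelium 13576 ± 1421 CPM (n = 6) and myofibroblasts 21622 ± 1869 CPM (n = 3). The epithelial set was 2.41 to 3.03 times that of fibroblasts, higher in 8 of 8 mice. B cells, the endothelium and fibroblasts, at the low end of the order, did not differ beyond their spread. The place of B cells depended on the denominator: immunoglobulin genes held 25.8% of their non-mitochondrial UMIs (10.3% to 40.2% by mouse), and without these UMIs B cells averaged 17276 ± 2100.3 CPM, against 15746 CPM in T cells, 16413 CPM in macrophages and 16862 CPM in lymphatics. Since the authors defined the classes from the same cells, comparisons of classes are descriptions without a test.

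**Figure D1:**
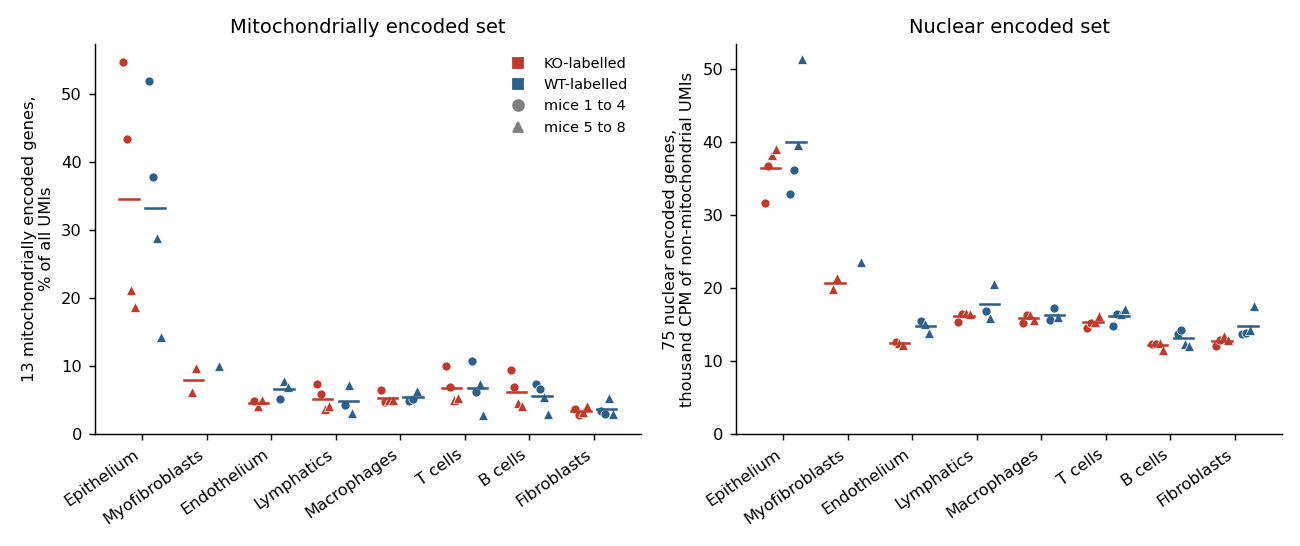
Share of all UMIs from the 13 mitochondrially encoded genes (in percent) and summed CPM of non-mitochondrial UMIs of the 75 nuclear genes, per class; each point is 1 mouse, KO left of WT, and bars are means where a group has at least 2 mice. The epithelium is highest in both, with its mitochondrially encoded share between 14.3% and 54.7%.

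The excess of the epithelium over fibroblasts differed by complex. The median ratio over genes was 2.18 for complex I, 3.71 for complex III, 3.92 for complex IV and 2.66 for complex V. In summed levels, complex IV had 12613 ± 1924 CPM in the epithelium and 3570 ± 507 CPM in fibroblasts, and complex I had 9895 ± 1569 CPM and 4449 ± 576 CPM (SD, n = 8 each). Of the 75 genes, 69 were higher in the epithelium in 8 of 8 mice, and the median ratio was 2.53. Over all 8 classes, 66 genes had their highest mean in the epithelium and 6 in myofibroblasts, the others being Cox6b2 (fibroblasts), Cox7a2l (T cells) and Ndufs8 (lymphatics).

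The 10 nuclear genes with the most UMIs were Cox8a, Cox4i1, Cox7c, Cox6c, Cox5b and Cox5a of complex IV, Uqcrh of complex III, and Atp5e, Atp5b and Atp5h of complex V. Cox8a, subunit VIII of complex IV, had 1963, 2239, 2072 and 1951 CPM in the epithelium of KO mice 2, 3, 6 and 7 and 1881, 2263, 2025 and 2958 CPM in WT mice 1, 4, 5 and 8. Its fibroblast levels lay between 489 and 696 CPM, below every epithelial value. Cox4i1, the common isoform of subunit IV, averaged 1583 CPM in the epithelium and 507 CPM in fibroblasts. Cox7c averaged 1480 CPM and 652 CPM and Cox6c 1572 CPM and 399 CPM in the same order.

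Uqcrh, the hinge protein of complex III, averaged 1036 CPM in the epithelium and 456 CPM in fibroblasts, while T cells reached 714 CPM. Atp5e, the epsilon subunit of the ATP synthase rotor, had 887 CPM and 502 CPM in epithelium and fibroblasts, Atp5b, the catalytic beta subunit, 955 CPM and 232 CPM, and Atp5h 795 CPM and 384 CPM. Among these 10 genes the largest ratios were those of Cox5a and Cox5b, subunits of complex IV. Cox5a stood at 1014 ± 223 CPM in the epithelium and 150.3 ± 16.8 CPM in fibroblasts, a ratio of 6.75, and Cox5b at 1198 ± 241 CPM and 231 ± 30.0 CPM, a ratio of 5.19 (SD, n = 8 each). Levels of different genes are 3′ UMIs and are not corrected for how well each 3′ end was captured, so the ratios within a gene are the safer reading.

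Several isoform pairs divided between classes. Cox7a1, the subunit VIIa isoform best known from heart and skeletal muscle, had 119.5, 126.9, 94.4 and 79.6 CPM in the epithelium of KO mice 2, 3, 6 and 7 and 114, 123.5, 130.1 and 149 CPM in WT mice 1, 4, 5 and 8. Fibroblasts had 1.07 to 8.76 CPM, so that every epithelial value of Cox7a1 lay above every fibroblast value, and the ratio of means, 36.0, was the widest of any gene between these classes. Myofibroblasts followed with 21.9 CPM, and the other classes averaged 3.25 to 5.19 CPM. Its widely used partner Cox7a2 was still the more abundant of the pair in the epithelium, at 947.5 CPM against 234 CPM in fibroblasts. Cox7a2l, a relative that works in assembling supercomplexes, was nearly even: 269.8 CPM in the epithelium, 231 CPM in fibroblasts and 332 CPM in T cells.

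Cox4i2, the subunit IV isoform induced at low oxygen, was a stromal gene here. Myofibroblasts had 105.5 and 309 CPM in KO mice 6 and 7 and 144.5 CPM in WT mouse 5, whereas the epithelium averaged 0.582 CPM. Ndufa4l2, also known as a low-oxygen isoform and found in pericytes, followed it with 105.5 and 203.7 CPM in KO mice 6 and 7 and 202.9 CPM in WT mouse 5. The fibroblast subtype named MSCs had 42.3 and 87.0 CPM of Ndufa4l2 in KO mice 2 and 7 and 57.3 CPM in WT mouse 5. Pericyte markers summed to 2120 CPM in these same myofibroblasts, and their part in the 2 isoforms was not tested. Cox6b2, known from testis, was highest in fibroblasts (32.7 ± 14.7 CPM, n = 8), against 4.05 ± 1.56 CPM in the epithelium, where Cox6b1 had 851 CPM.

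**Figure D2:**
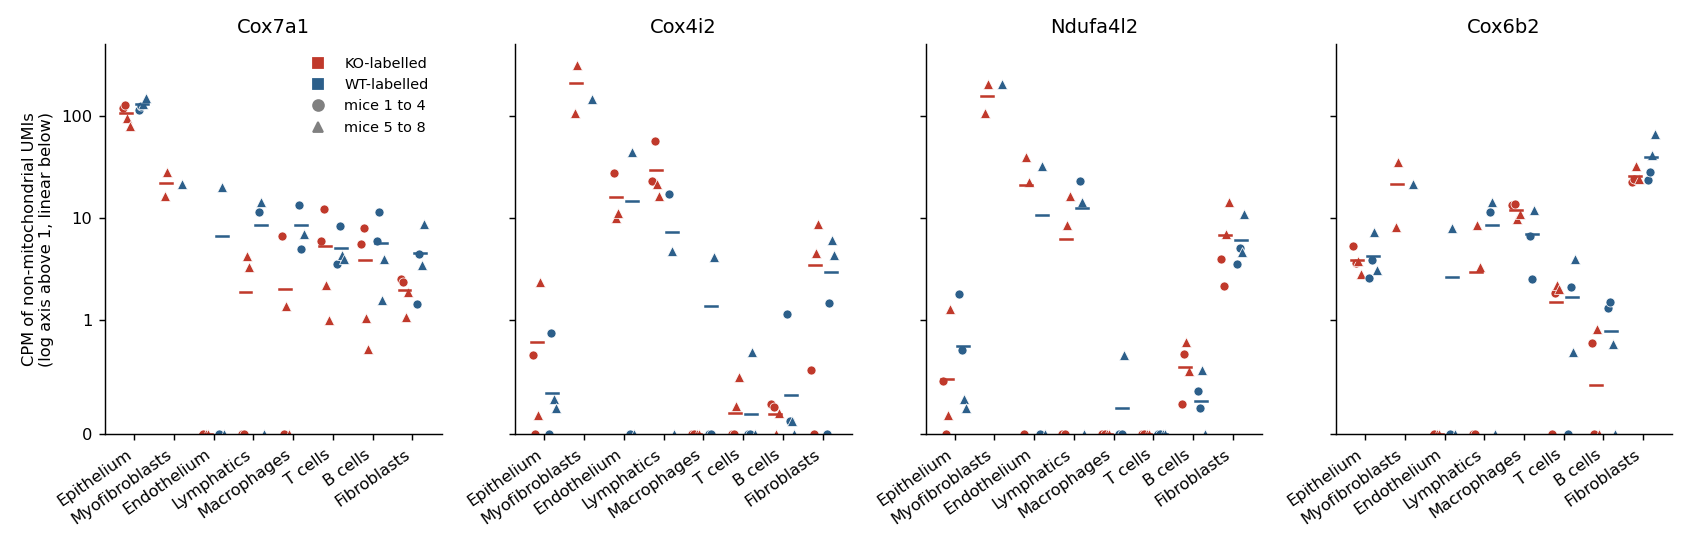
CPM of non-mitochondrial UMIs of Cox7a1, Cox4i2, Ndufa4l2 and Cox6b2 in each class; each point is 1 mouse, KO left of WT, bars are means, and the axis is logarithmic above 1 CPM and linear below. Cox7a1 is highest in the epithelium, Cox4i2 and Ndufa4l2 in myofibroblasts and Cox6b2 in fibroblasts.

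Among WT epithelial cells the authors' subtype names gave a finer division, although 6727 of 13229 carried no name. None of the 10558 KO cells carried one, so the following subtypes are from WT mice alone. Between enterocytes and stem-progenitor cells the 2 sets ran in opposite directions as shares of RNA, while per cell both were lower in enterocytes. Enterocytes, the absorptive cells, had a mitochondrially encoded share of 39.3%, 37.0%, 38.5% and 20.4% in mice 1, 4, 5 and 8, and stem-progenitor cells 22.7%, 18.8%, 16.8% and 13.05%. As CPM of non-mitochondrial UMIs the nuclear set was lower, at 24082 ± 2538 CPM in enterocytes and 48721 ± 6856 CPM in stem-progenitor cells (SD, n = 4 each). Within a mouse the enterocyte set was 0.470 to 0.511 times the stem-progenitor set, lower in 4 of 4 mice. In UMIs per cell the mitochondrially encoded set had 1338, 837, 1661 and 808 in enterocytes of mice 1, 4, 5 and 8 and 1756, 1908, 2495 and 1491 in stem-progenitor cells. The nuclear set had 44.7, 33.9, 61.9 and 87.2 UMIs per enterocyte and 258, 390.2, 567 and 583 per stem-progenitor cell. Both were lower in enterocytes in 4 of 4 mice. All non-mitochondrial UMIs per cell were lower too, at 2071, 1427, 2650 and 3157 in enterocytes and 5976, 8261, 12398 and 9935 in stem-progenitor cells. The part of this depth in the values per cell was not tested.

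The difference ran through most of the set: 72 of 75 genes were lower in enterocytes in 4 of 4 mice, with a median ratio of 0.456. The lowest among genes with levels well above 0 was Atp5g1, which encodes subunit c of the ATP synthase ring, with 139.9, 196.5, 124.1 and 186.5 CPM in enterocytes of mice 1, 4, 5 and 8 and 808, 992, 948 and 1286 CPM in stem-progenitor cells. Atp5g2, which encodes the same mature subunit, had 153 CPM and 683 CPM, and Atp5g3, the remaining copy, 344 CPM and 976 CPM. Ndufa4, now assigned to complex IV, had 80.6 ± 28.9 CPM in enterocytes and 402 ± 69.0 CPM in stem-progenitor cells, a ratio of 0.200. Ndufa1 and Ndufa6 kept 0.931 and 0.873 of the stem-progenitor level.

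Cells that the authors labelled DCS combined the lowest mitochondrially encoded share of the epithelium with a high nuclear set. The share of their summed UMIs was 12.9%, 7.25%, 3.46% and 2.14% in mice 1, 4, 5 and 8. The median DCS cell lay far lower, at 0.375%, 0.385%, 1.25% and 0.234%. Median UMIs per DCS cell were 877, 1015, 1097 and 1402 in these mice, and the part of depth was not tested. The nuclear set averaged 40295 ± 6702 CPM (SD, n = 4). DCS cells held 1201 ± 175 CPM of Atp5g1 and 879 ± 313 CPM of Ndufa4, 7.43 and 10.9 times the enterocyte means and higher in 4 of 4 mice. Goblet cells, the mucus producers, had the lowest nuclear set, 16879 ± 1607 CPM (n = 3), and 73 of 75 genes were lower than in stem-progenitor cells in 3 of 3 mice. Cox7a1 was 1 of the 2 that were not, with 158 ± 72.0 CPM in goblet cells and 149.8 ± 29.9 CPM in stem-progenitor cells. A CPM is a share of the RNA: the 10 most abundant genes held 33.3% of non-mitochondrial UMIs in goblet cells, 20.5% in DCS cells, 15.7% in enterocytes and 7.52% in stem-progenitor cells, and the part of this in the differences was not tested.

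**Figure D3:**
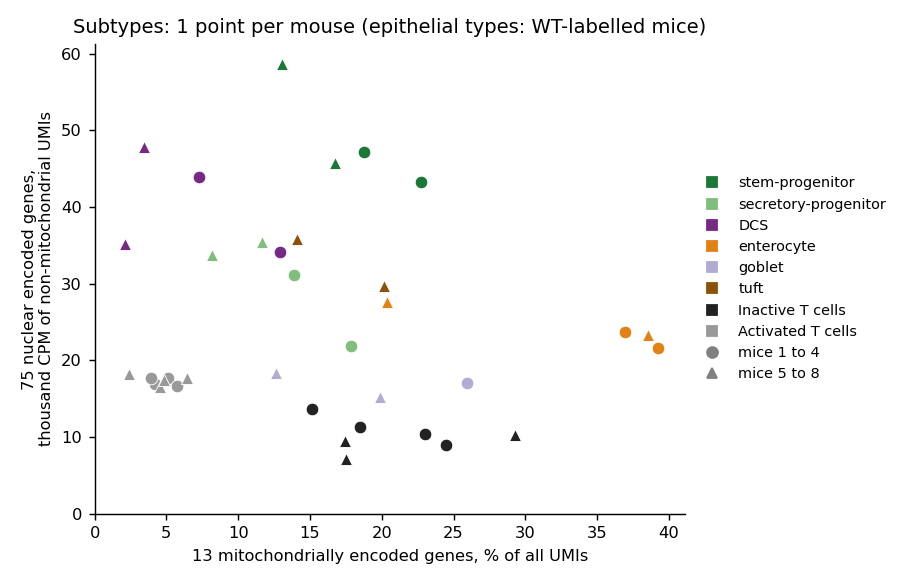
Summed CPM of non-mitochondrial UMIs of the 75 nuclear genes against the share of all UMIs from the 13 mitochondrially encoded genes (percent) for epithelial subtypes of WT mice and for inactive and activated T cells of all mice that had them; each point is 1 mouse and 1 subtype. Enterocytes sit high in mitochondrially encoded share and low in the nuclear set relative to stem-progenitor cells, and DCS cells sit at 2.14% to 12.9%.

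Cells with at least 50% mitochondrially encoded UMIs made up 11.1% to 79.6% of the epithelium of a mouse. Per cell they held a median of 437 non-mitochondrial UMIs (mean over 8 mice), against 2187 in the remaining epithelial cells. Their nuclear set was 27326 ± 2952 CPM, against 39398 ± 5308 CPM below 50% (SD, n = 8 each), lower in 8 of 8 mice. In UMIs per cell the nuclear set had 15.5 and 189, while the mitochondrially encoded set had 1578 and 1054, higher in 7 of 8 mice. The share itself chose these cells, so these values are a description.

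Among immune subtypes, T cells that the authors named inactive had a mitochondrially encoded share of 20.8% ± 5.00, against 4.95% ± 0.881 in activated T cells of the same 7 mice. Their nuclear set was 10203 ± 2040 CPM and that of activated cells 17254 ± 524 CPM, lower in 7 of 7 mice, and 34 of 75 genes were lower in each mouse. Inactive cells were also shallow, with median UMIs per cell of 725 to 922, against 2178 to 3487 in activated cells, and the part of depth was not tested. B progenitors had 21579 ± 1056 CPM of the nuclear set and mature B cells 13606 ± 965 CPM in the same 5 mice, with 62 of 75 genes higher in each mouse, among them Atp5g3 (394 CPM and 165 CPM).

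Plasma cells, which secrete antibody, had 10414 ± 822 CPM of the nuclear set, against 13438 ± 885 CPM in mature B cells (SD, n = 8 each), lower in 8 of 8 mice. Immunoglobulin genes held 56.6% of the non-mitochondrial UMIs of plasma cells and 1.26% of those of mature B cells. With immunoglobulin UMIs left out of the denominator, the order turned to 24006.5 ± 1110.2 CPM in plasma cells and 13609 ± 885 CPM in mature B cells. Ndufa4 and Ndufa1 were higher in plasma cells in 8 of 8 mice on the first scale too, at 680 ± 139.97 CPM and 275 ± 27.5 CPM for Ndufa4 and 279 ± 46.2 CPM and 85.5 ± 16.1 CPM for Ndufa1.

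Within the mitochondrially encoded set, 5 genes carried most of the UMIs. In the epithelium mt-Co1, the catalytic subunit of complex IV, held 25.0% ± 3.44 of the set, mt-Atp6, the proton channel of ATP synthase, 24.4% ± 1.80, mt-Co3 16.7% ± 0.748, mt-Co2 15.0% ± 0.656 and mt-Cytb, the only mitochondrially encoded subunit of complex III, 7.51% ± 0.723 (SD, n = 8). The complex I genes were lower: mt-Nd4 held 4.61%, mt-Nd1 2.31%, mt-Nd2 1.85%, mt-Nd3 0.764%, mt-Nd5 0.710%, mt-Nd4l 0.683% and mt-Nd6 0.0444%. The remaining gene, mt-Atp8, held 0.436%.

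The composition differed by subtype as well as by mouse. The part of mt-Co1 was 30.8%, 34.8%, 28.9% and 32.65% of the set in enterocytes of WT mice 1, 4, 5 and 8, and 19.9%, 20.4%, 19.3% and 22.6% in stem-progenitor cells, without overlap. Goblet cells lay with enterocytes at 26.9% to 31.2% and DCS cells with stem-progenitor cells at 19.4% to 23.9%. Over the epithelium as a class, mt-Co1 held 28.6%, 26.8%, 22.1% and 20.8% in KO mice 2, 3, 6 and 7, against 28.2%, 28.4%, 20.8% and 24.05% in WT mice 1, 4, 5 and 8. Mice 1 to 4 were above mice 5 to 8 for the class, and the genotypes overlapped. Within enterocytes and within stem-progenitor cells this divide did not hold, since WT mouse 8 lay above WT mouse 1. WT mouse 8 stood apart in mt-Atp8 and mt-Nd4l, which each overlap a neighbour. There mt-Atp8 held 1.09% of the epithelial set, against 0.214% to 0.431% in the other 7 mice, and mt-Nd4l 1.33% against 0.434% to 0.759%. Fibroblasts of mouse 8 showed the same, with 1.23% for mt-Atp8 against 0.304% to 0.592%, and 1.83% for mt-Nd4l against 0.587% to 1.24%. The overlapping gene mt-Atp6 did not stand apart in this way. In epithelial cells of mouse 8 with at least 50% mitochondrially encoded UMIs, mt-Atp6 held 24.9%, against 22.3% to 27.6% in the other mice. In epithelial cells under 50%, mt-Atp6 held 23.5% in mouse 8, against 23.6% to 27.7%.

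**Figure D4:**
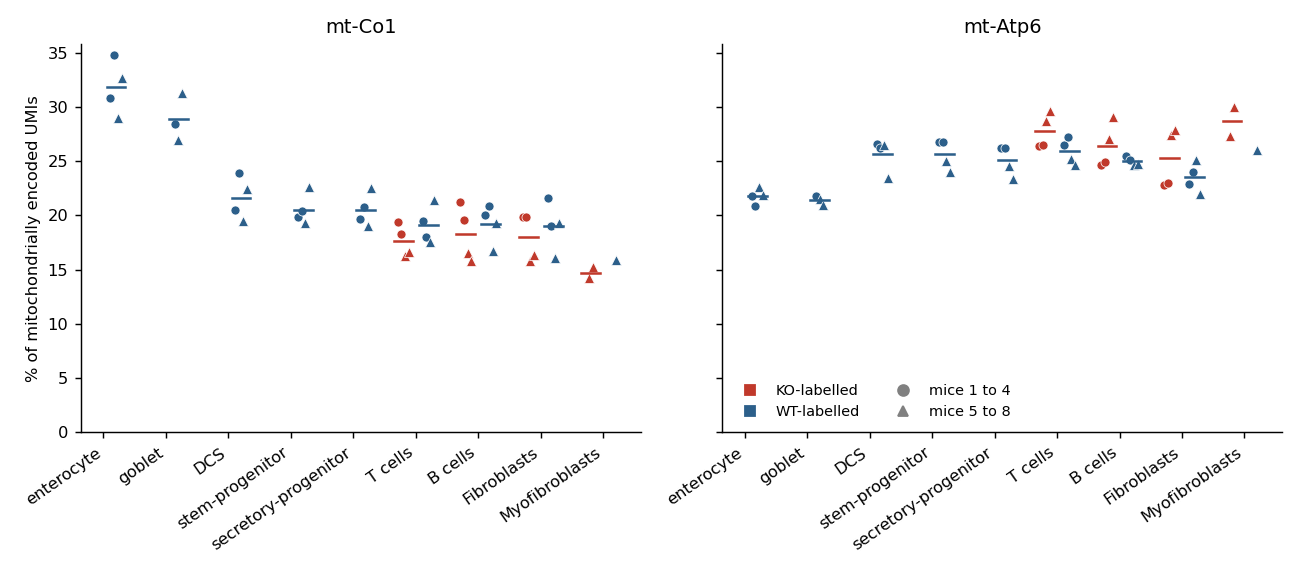
Percent of the mitochondrially encoded UMIs held by mt-Co1 and by mt-Atp6 in epithelial subtypes (WT mice) and in 4 other classes (KO left of WT); each point is 1 mouse, and bars are means. The part of mt-Co1 is 28.9% to 34.8% in enterocytes and 19.3% to 22.6% in stem-progenitor cells.

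The comparison of genotypes asked whether the members differed in mice with VillinCre. UMIs were summed per mouse in each of 7 classes and 11 subtypes and all genes were fitted with edgeR's quasi-likelihood test. Classes and subtypes come from the same 8 libraries and are not independent of each other. No member passed a Benjamini-Hochberg adjusted p of 0.05 in any of the 18 fits, and DESeq2 called none either. Of all genes tested, edgeR called 0.146% in lymphatics (5 genes), 0.111% in macrophages (6 genes) and 0.0228% in activated T cells (1 gene), and 0% in the other fits. At an unadjusted p under 0.05 there were 11 of 59 tested members in the endothelium (4.7% of all genes), 8 of 87 in fibroblasts (1.79%), 4 of 81 in lymphatics (4.03%), 4 of 83 in T cells (1.8%), 3 of 83 in macrophages (2.72%), 2 of 85 in B cells (1.04%) and 0 of 86 in the epithelium (0.819%). In the subtypes these were 14 of 84 members in the CD90-pos, Igfbp3 fibroblasts (3.52% of all genes) and 4 of 85 in CD90-pos fibroblasts (2.12%), 6 of 85 in mature B cells (1.46%) and 1 of 83 in plasma cells (2.81%). Among T-cell subtypes they were 10 of 63 in IELs (4.92%), 9 of 74 in inactive (2.18%), 9 of 81 in memory (3.4%), 4 of 83 in activated (3.31%), 3 of 71 in ILC1-NK (3.18%), 2 of 77 in ILC2 (4.35%) and 1 of 73 in Tregs (3.24%). Members are tested only where their counts pass a low-count filter, which kept 59 to 87 of 88 per class.

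The direction of the mitochondrially encoded set depended on single mice. Its median log2 fold change (KO over WT) is from the edgeR fits, in which TMM rescales the libraries. This median was 0.17 in the epithelium, with all 13 genes above 0. It was -0.40 without KO mouse 2, -0.10 without WT mouse 8 and 0.64 without WT mouse 1. In fibroblasts the median was -0.12, and 0.19 without WT mouse 5. The difference of the share of UMIs, KO minus WT, was 1.31 percentage points in the epithelium, with SDs of 17.5 and 15.8 among KO and WT mice. Within mice 1 to 4 that difference was 4.28 and within mice 5 to 8 -1.65 percentage points. In the endothelium the share averaged 4.62% ± 0.497 in KO mice and 6.59% ± 1.38 in WT mice (SD, n = 3 each) without overlap, on 20 to 72 cells per mouse.

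For the nuclear set most log2 fold changes were slightly below 0. The median over tested members was -0.14 in the epithelium, -0.16 in fibroblasts, -0.12 in B cells, -0.13 in macrophages, -0.29 in the endothelium, -0.08 in lymphatics and -0.03 in T cells, and over all genes it lay between -0.01 and 0.01. Above 0 were 4 of 73 members in the epithelium (50.7% of all genes), 14 of 74 in fibroblasts (51.4%), 8 of 72 in B cells (50.5%), 19 of 70 in macrophages (50.8%), 9 of 47 in the endothelium (48.7%), 28 of 69 in lymphatics (49.8%) and 27 of 70 in T cells (52.8%). In the epithelium this rested on WT mouse 8: without it the median was 0.01, with 40 of 73 genes above 0, and in lymphatics it was 0.03. Fibroblasts without mouse 8 had -0.11. In WT mice 1, 4, 5 and 8, cells named stem-progenitor numbered 224, 283, 621 and 1250. All epithelial cells of these mice numbered 3726, 4242, 2674 and 2587. The named part of the class thus differed in make-up by mouse, and KO epithelial cells carried no subtype name. The part of this make-up in the epithelial class values was not tested. The summed set in fibroblasts was 12065, 12801, 13385 and 12886 CPM in KO mice 2, 3, 6 and 7 and 13619, 13823, 14252 and 17460.4 CPM in WT mice 1, 4, 5 and 8, and did not overlap. In the epithelium, B cells, T cells, macrophages and lymphatics the groups overlapped. In macrophages, however, immunoglobulin genes held 0.0427%, 0.0420%, 0.0851% and 0.0627% of non-mitochondrial UMIs in KO mice 2, 3, 6 and 7 and 9.23%, 2.81% and 4.33% in WT mice 1, 4 and 5. Without these UMIs the macrophage set was 15235 to 16306 CPM in KO mice and 16702 to 17684 CPM in WT mice, and did not overlap.

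Overlap of the 2 genotypes was counted on the CPM of each mouse after TMM rescaling. The groups did not overlap, with KO lower, for 13 of 47 nuclear members in the endothelium (5.68% of all genes), 11 of 74 in fibroblasts (0.898%), 7 of 70 in macrophages (2.7%), 4 of 70 in T cells (0.551%), 3 of 69 in lymphatics (3.12%), 2 of 72 in B cells (0.517%) and 1 of 73 in the epithelium (0.358%). In the endothelium immunoglobulin genes held 0.0710%, 6.55% and 3.99% of non-mitochondrial UMIs in KO mice 3, 6 and 7 and 0.278%, 0.126% and 0.0246% in WT mice 4, 5 and 8. Their part in the endothelial and macrophage fits was not tested; without them the summed endothelial set still did not overlap, at 12622, 13274 and 12646.5 CPM in KO mice and 15507, 15054 and 13801 CPM in WT mice. With KO higher it was 1 member in the endothelium (4.44%) and 1 in lymphatics (2.22%).

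Of 47 nuclear members tested in all 7 classes, 20 (42.6%) had a log2 fold change below 0 in every class and 0 had one above 0 in every class. Of all 1157 genes tested in every class, 6.14% were below 0 and 5.36% above 0 throughout. Among the 20 were Cox7c, Cox7a2, Cox6c, Cox8a, Uqcr10, Uqcr11, Uqcrb, Uqcrq and Atp5j2. Because the classes share mice, this recurrence is a description of 8 animals.

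Atp5k, subunit e of ATP synthase, a small membrane protein at the interface where the enzyme forms dimers, was the member whose groups most often did not overlap between the genotypes, with KO lower. The gene is annotated on chr5:108433244-108434448 (GRCm38), minus strand, with no other annotated gene overlapping it. Fibroblasts had 133, 132, 91.7 and 81.0 CPM of Atp5k in KO mice 2, 3, 6 and 7 and 159, 150.3, 154 and 195 CPM in WT mice 1, 4, 5 and 8. T cells had 132, 116, 85.0 and 78.6 CPM in KO mice and 156, 153, 152 and 151 CPM in WT mice. In both classes every KO value lay below every WT value, and the WT values of T cells were nearly alike.

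B cells had 133, 122, 93.3 and 69.5 CPM of Atp5k in KO mice 2, 3, 6 and 7 and 151, 156, 125 and 117 CPM in WT mice 1, 4, 5 and 8. Macrophages had 165, 181, 111 and 96.1 CPM in KO mice and 200.2, 208 and 171 CPM in WT mice 1, 4 and 5. These values overlapped between the groups on this scale. In lymphatics Atp5k had 114, 98.3, 120.05 and 115 CPM in KO mice and 207, 190.3 and 201 CPM in WT mice 4, 5 and 8, without overlap. In the endothelium it had 54.6, 59.5 and 50.8 CPM in KO mice 3, 6 and 7 and 221, 143 and 171 CPM in WT mice 4, 5 and 8, again without overlap but on 2, 6 and 9 UMIs in KO mice and 14, 36 and 9 UMIs in WT mice.

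The epithelium, where the Cre is expressed, had 421, 439.9, 349 and 298 CPM of Atp5k in KO mice 2, 3, 6 and 7 and 426, 474, 497 and 595 CPM in WT mice 1, 4, 5 and 8. Here KO mouse 3 lay above WT mouse 1 and the groups overlapped. The log2 fold change of Atp5k was -1.59 ± 0.42 (SE) in the endothelium, -0.78 ± 0.25 in lymphatics, -0.61 ± 0.25 in macrophages, -0.58 ± 0.17 in T cells, -0.54 ± 0.18 in fibroblasts, -0.48 ± 0.15 in B cells and -0.41 ± 0.20 in the epithelium. The unadjusted edgeR p was 0.00265, 0.0051, 0.0303, 0.00406, 0.012, 0.00982 and 0.0686 in that order of classes. The adjusted p was 0.451 in the endothelium and 1.00 in the other 6 classes, so none passed.

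On the scale of the fits, in which TMM rescales the libraries, Atp5k groups did not overlap, with KO lower, in 5 of 7 classes: the endothelium, lymphatics, fibroblasts, T cells and B cells. It was the only gene of the 1157 tested in every class to do so in 3 or more classes. Its log2 fold change was below 0 in 18 of 18 fits, as were those of 8 other members (Atp5e, Cox5b, Cox6c, Cox7a2, Cox7c, Cox8a, Uqcr10 and Uqcr11). Memory T cells, in which KO mice 2, 3, 6 and 7 had 101, 115, 71.1 and 61.5 CPM and WT mice 1, 4 and 5 had 175, 148 and 145 CPM, gave its smallest unadjusted p, 0.000608, with an adjusted p of 0.794. The mean was lower in KO mice within mice 1 to 4 and within mice 5 to 8 in 15 of 15 groups of class and mice, which also held for Cox6c and Uqcr10. Most members counted this way were chosen by their small p in these same mice. The count was not made over all genes, so it is a description and no independent support. In fibroblasts the KO and WT means of Atp5k were 132 and 154 CPM within mice 1 to 4 and 86.3 and 175 CPM within mice 5 to 8, and in the epithelium 430.3 and 449.7 CPM and 324 and 546 CPM.

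**Figure D5:**
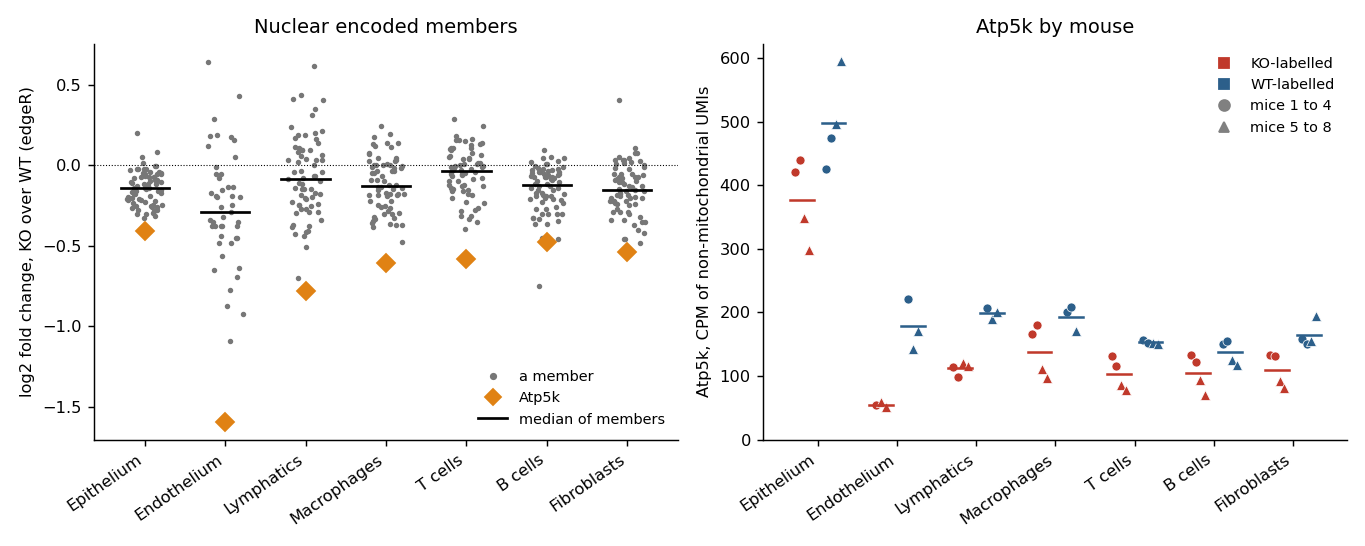
Left, log2 fold change (KO over WT, edgeR) of each nuclear member in each class fit, with Atp5k marked and the median as a bar; right, CPM of non-mitochondrial UMIs of Atp5k per mouse, KO left of WT, with means as bars. Nuclear members lie mostly just below 0, no member passes an adjusted p of 0.05, and Atp5k is below 0 in all 7 classes, between -1.59 and -0.41.

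None of the other members with a small unadjusted p passed the adjustment. Ndufc1, a small membrane-arm subunit of complex I, had 101, 129, 107 and 98.2 CPM in fibroblasts of KO mice 2, 3, 6 and 7 and 142, 156.5, 150.1 and 147 CPM in WT mice 1, 4, 5 and 8, without overlap. Its log2 fold change was -0.42 ± 0.13 there (edgeR unadjusted p = 0.00786, adjusted p = 1.00) and -0.61 ± 0.20 in macrophages (unadjusted p = 0.00934, adjusted p = 1.00). Cox6c, a complex IV subunit, had 412, 432, 362 and 356 CPM in T cells of KO mice and 462, 501, 505 and 511 CPM in WT mice, without overlap, with a log2 fold change of -0.33 ± 0.15. In the epithelium Cox6c overlapped, at 1228 to 1632 CPM in KO mice and 1506 to 2217 CPM in WT mice.

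Uqcr11 and Uqcr10, small subunits of complex III, gave -0.45 (Uqcr11 in B cells), -0.51 (Uqcr11 in lymphatics), -0.35 (Uqcr11 in T cells), -1.09 (Uqcr10 in the endothelium), -0.34 (Uqcr10 in macrophages) and -0.31 (Uqcr10 in T cells). Cox7c of complex IV and Atp5j2, which encodes subunit f of ATP synthase, gave -0.78 and -0.69 in the endothelium and -0.48 and -0.37 in macrophages. Ndufb4 in the endothelium gave -0.92. In fibroblasts Ndufa3, Ndufv3 and Ndufb7 gave -0.46, -0.35 and -0.40, and in T cells Ndufa3 gave -0.40. B cells completed their 5 smallest p with Cox6c (-0.32), Ndufc1 (-0.35) and Ndufa2 (-0.33).

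In the epithelium the 4 nuclear members after Atp5k were Ndufa5 (-0.33 ± 0.16), Ndufs1 (-0.20 ± 0.11), Ndufa3 (-0.29 ± 0.17) and Cox7a1 (-0.30 ± 0.19). Ndufs1, the large iron-sulphur subunit of complex I, was the epithelial member without overlap on the scale of the fit. On the scale of non-mitochondrial UMIs Ndufs1 had 73.2, 79.6, 72.3 and 69.9 CPM in KO mice 2, 3, 6 and 7 and 88.6, 78.9, 89.4 and 82.2 CPM in WT mice 1, 4, 5 and 8, and KO mouse 3 lay above WT mouse 4. In lymphatics Cox5a and Ndufa6 were the members of small p with a positive log2 fold change, 0.62 ± 0.23 and 0.41 ± 0.24. Cox5a had 239.5, 309, 214 and 286 CPM in lymphatics of KO mice and 166, 181 and 155 CPM in WT mice 4, 5 and 8, without overlap. Ndufa1 gave -0.70 ± 0.30 in the same class.

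Neighbouring gene lists showed no called gene in any class, in either direction. In the epithelium, edgeR tested 4 of 4 complex II genes (median log2 fold change -0.04). Of the list headed cytochrome c it tested 2 of 2 genes (-0.22): Cycs, and Cyc1, which encodes cytochrome c1 of complex III. It tested 15 of 15 complex I assembly factors (-0.04), 18 of 19 complex IV assembly factors (-0.09) and 11 of 11 assembly factors of complexes III and V (-0.02). Further lists were mitochondrial transcription (15 of 16 genes, -0.07), the mitochondrial ribosome (77 of 78, -0.02) and nuclear regulators (9 of 9, 0.09). The last were glycolytic genes (14 of 14, 0.07) and RNAs retained in the nucleus (4 of 4, 0.07). The median over all genes was 0.00218. The CPM of Sdha, Cycs, Ppargc1a and Esrrg given next are on the scale of the fits, after TMM rescaling. Sdha, the flavoprotein of complex II, had 130.2 ± 4.30 CPM in KO mice and 131.5 ± 4.63 CPM in WT mice (SD, n = 4 each). Cycs, which encodes cytochrome c itself, had 331 ± 31.3 CPM and 398 ± 159 CPM in the same order. Among the regulators Ppargc1a had 52.6 ± 12.0 CPM and 49.6 ± 13.6 CPM, and Esrrg, a nuclear receptor related to ERR alpha, 4.62 ± 0.996 CPM and 3.05 ± 0.295 CPM with an unadjusted p of 0.0249 and an adjusted p of 1.00.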

How the data were processed

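The deposited matrix holds UMI counts per gene and cell for all 8 mice, which per the submitters' processing notes were made by the authors with Cell Ranger 3.0.2 on the mm10 build; a deposited table gives each cell's mouse, class, subtype and size factor, a ratio that the authors set and that served here only to check the cell order (53080 of 53080 cells matched within 1e-06 once sorted by mouse and barcode). The smallest cell had 500 UMIs and the largest 113660. Cells with a doublet label were removed.

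Counts were summed per mouse and cell type where a mouse had at least 20 cells. Fits used edgeR 4.0.16 (filterByExpr, TMM, quasi-likelihood F test, R 4.3.3) where at least 3 mice per genotype qualified, with Benjamini-Hochberg adjustment over all genes; Python 3.11.15 made the tables. The mouse is the replicate. Sums over members have no test. On simulated counts 38.1% of 2-fold and 92.9% of 4-fold changes were recovered in the epithelium (11813 genes) and 51.0% and 94.8% in fibroblasts (10990 genes).

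Named genes are all 13 mitochondrially encoded genes, the 5 nuclear members with the smallest p per class (none passed), the 10 with the most UMIs, the paired isoforms and those with the widest span between classes; others named were chosen after their values were seen. Members and lists were chosen with earlier results of these data known. Alternatives were DESeq2 1.42.0, no count filter, each mouse left out, mitochondrially encoded genes left out, only cells under 50% mitochondrially encoded UMIs, doublets kept, other denominators and means over cells. A term for mice 1 to 4 and 5 to 8 was chosen after seeing the data. Promoter windows are from RefSeq; gene positions are from GENCODE on GRCm38, the build that mm10 names.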

Additional observations from a re-analysis of the deposited data

Results flagged for a closer look

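Among 62 groups of 4 mice, 4 held a mouse far from the other 3, and chance alone flags about 1 in 20 such groups. The nuclear set of B cells in KO mouse 7 was 11549 CPM of non-mitochondrial UMIs, with the other KO mice between 12285.5 and 12394 CPM. In lymphatics of KO mouse 2 it was 15316 CPM, with the other KO mice between 16410.4 and 16489 CPM. In fibroblasts of WT mouse 8 it was 17460.4 CPM, with the other WT mice between 13619 and 14252 CPM. Cox6b2 in fibroblasts of KO mouse 6 was 32.4 CPM, with the other KO mice between 22.6 and 24.2 CPM.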

How the results depend on the processing

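The number of members called stayed at 0 under each alternative that gave a value, in all 7 classes and 11 subtypes; DESeq2 also called 0. The only group value to move by more than the spread between mice was the mitochondrially encoded share in macrophages, where KO minus WT was -0.143 percentage points from summed UMIs and -1.18 as a mean over cells (6.33% in KO mice and 7.50% in WT mice). The median log2 fold change of the nuclear members moved beyond that spread in 5 of 94 class values: to -0.21 in B cells without KO mouse 7, to -0.20, -0.22 and -0.36 in the endothelium with no count filter, without WT mouse 4 and without KO mouse 6, and to -0.11 in T cells without WT mouse 1. Without single mice, the median of the mitochondrially encoded genes ranged from -0.40 to 0.64 in the epithelium. The log2 fold change of Atp5k stayed below 0 throughout, between -0.51 and -0.28 in the epithelium and between -1.79 and -1.42 in the endothelium; its adjusted p in the class fits was never under 0.259. In none of these cases was the cause tested. Of simulated 2-fold changes 38.1% were recovered in the epithelium and 51.0% in fibroblasts; the other classes were not simulated. No paired analysis was made, because the sample labels used here do not give the litter of each mouse.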
